A study of Danio rerio with 6 samples.

Results

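The genes described here are 41 genes known as markers of neurons, neural progenitors, radial glia and the retina, followed in 6 RNA-seq libraries made from cells sorted out of 48-hour-old zebrafish embryos. They were chosen by name, as the rows of the deposited count table whose symbol was exactly one of the 41. Of these, 37 were in the table of 29361 gene symbols, and en2a, neurod1, map1b and sv2a were not found under those symbols. One listed gene, gap43, held 0 reads in every library, and the other 36 passed the filter on low counts that left 19381 genes for testing. Several of the 41, among them sox2, sox11a and tubb5, are also expressed outside the nervous system.

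The study compared 3 libraries from wild-type fish with 3 from fish with the genotype mafba uq4bh mutant, mafba being a gene for a large Maf transcription factor. Fish of both genotypes carried the transgene kdrl eGFP, in which a promoter active in endothelial cells drives a green fluorescent protein. The labels name the sorted cells as purified endothelial cells, while the protocol refers to brains taken apart by enzyme and to pdgfr beta egfp cells, so neither the tissue nor the reporter of the sort is settled. The sources used here do not say how many embryos went into a library or whether libraries of the same genotype had separate starting material. The p-values thus rest on the spread among these libraries, part or all of which may be technical.

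Neurons arise from dividing progenitors that express SoxB1 transcription factors such as Sox2 and Sox3. Proneural factors of the basic helix-loop-helix (bHLH) class then drive progenitors out of division, and the new neurons switch on RNA-binding proteins, cytoskeletal proteins of the growing axon and finally the proteins of the synapse. Radial glia are progenitors that also form a scaffold, and the retina is an outgrowth of the forebrain with its own set of homeobox factors. Most of these genes are not known as endothelial genes.

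Reads on genes ranged from 43859736 to 52923490 per library, and between 19230 and 21098 genes were detected. The endothelial genes kdrl and cdh5 stood at 34.3 to 54.8 and at 10.3 to 16.9 CPM, a count scaled to an adjusted library size. For this each library size was multiplied by its TMM scaling factor, which ranged from 0.9387 to 1.112. Of 26 endothelial genes 25 were in the table, and 0 of these were at 0 in every library. Levels are compared between libraries and not between genes, since reads also depend on transcript length. In RNA from a cell mixture, fewer cells of a type and less RNA per cell cannot be told apart.

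Reads on most of the members were found in every library of both genotypes, and no member passed the test between genotypes. Which cells these reads came from was not tested. With the quasi-likelihood test of edgeR, adjusted by the Benjamini-Hochberg method over all tested genes, 0 of the 36 members were called, against 0% of all tested genes, with a lowest adjusted p of 1 among the members. At an unadjusted p under 0.05 there was 1 member, crx, against 1.57% of all tested genes. This count was 11 of 36 without mutant 3, where 929 of 20087 genes were under 0.05, and 4 without wild-type 1, where 483 of 20358 were. With each of the other 4 libraries left out in turn it was 0. Of the 36 members 33 were fitted lower in the mutant libraries and 3 higher, where 50.7% of all tested genes were fitted lower. Their median log2 difference, mutant minus wild-type, was -0.30 with a range from -0.83 to 0.56, where the median over all tested genes was -0.0047. The members do not vary independently of each other, so the count of 33 carries no p. Leaving out wild-type 2 or mutant 1 brought it to 25 of 36 in each case, with medians of -0.17 and -0.14, while the median was -0.54 without mutant 3. Skeletal muscle genes, described below with other cell types, were also mostly fitted lower, at 17 of 19, while 7 of 16 epidermis genes were. Without wild-type 2 these counts were 7 of 19 and 3 of 16.

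**Figure D1:**
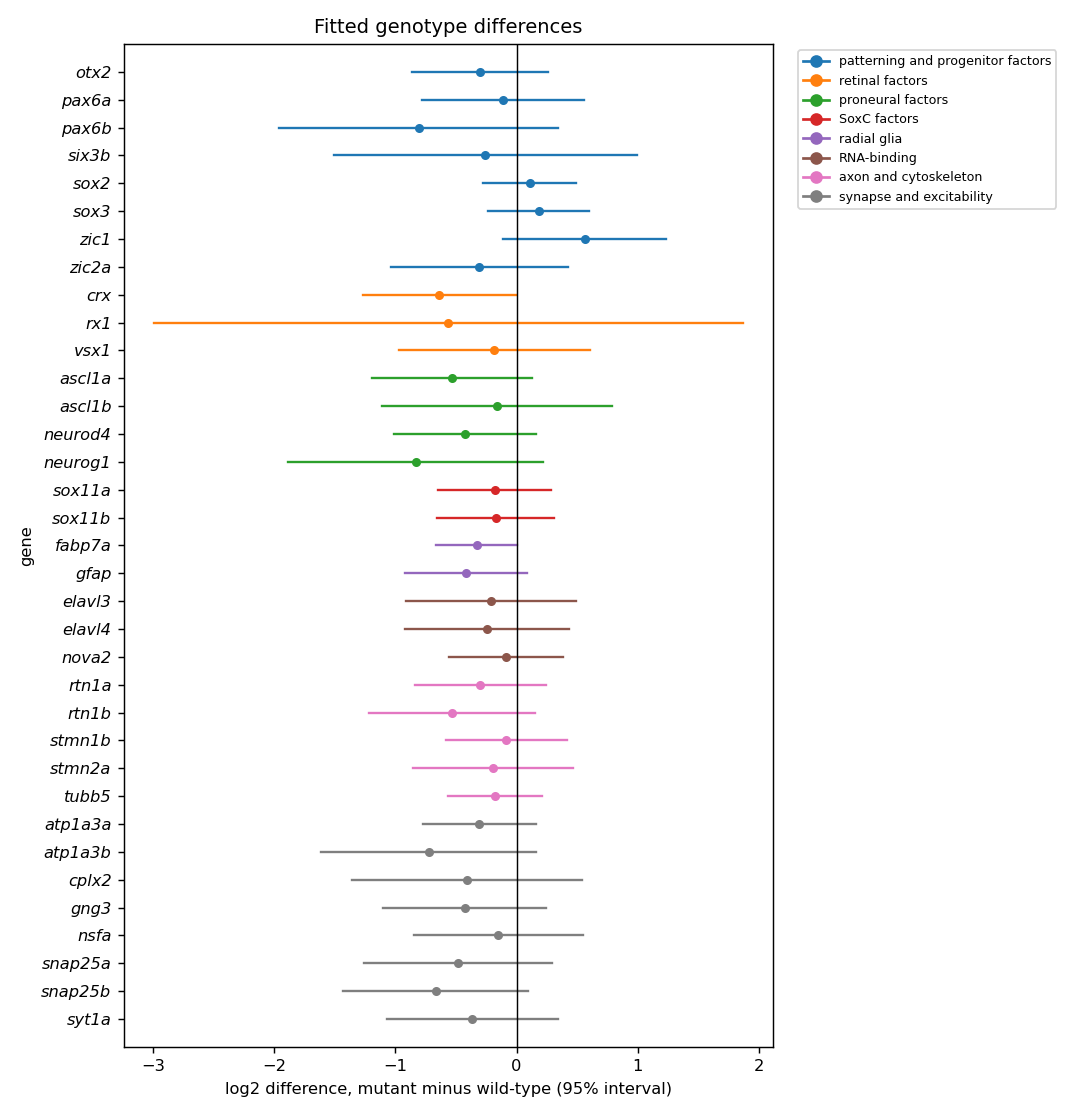
Log2 difference between mutant and wild-type libraries (x axis, mutant minus wild-type) for 35 tested members (y axis, coloured by role), with points for the edgeR estimate and lines for the 95% interval from 3 libraries per genotype. The gene rx2 is left out because its interval spans -5.58 to 5.19. Most points lie left of 0, and the interval of crx alone ends below 0, at -0.0046.

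The transcription factors of progenitors and of regional patterning held all 3 members that were fitted higher. The SoxB1 gene sox2 stood at 58.4, 69.0 and 55.6 CPM in wild-type 1, 2 and 3 and at 69.6, 74.4 and 53.1 CPM in mutant 1, 2 and 3, and its log2 difference was 0.11 ± 0.18 (SE). The related sox3 stood at 27.9, 27.3 and 27.8 CPM in wild-type and at 32.7, 35.4 and 26.1 CPM in mutant libraries, with a log2 difference of 0.18 ± 0.19 (SE). In both genes the genotypes overlapped, since mutant 3 was the lowest library and mutant 1 and 2 lay at the top. The interval of sox2 reached from 0.826 to 1.41 times the wild-type level, so a change of 1.5-fold lay outside it.

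The zinc finger gene zic1, which acts in the dorsal neural tube, was the member with all 3 mutant libraries above all 3 wild-type libraries. It stood at 7.19, 5.38 and 6.01 CPM in wild-type and at 8.46, 10.1 and 8.84 CPM in mutant libraries, with a log2 difference of 0.56 ± 0.31 (SE; unadjusted p = 0.0946 and adjusted p = 1, edgeR). Such an arrangement was seen in 3.38% of all tested genes. Its relative zic2a went the other way in the fit, at -0.31 ± 0.33 (SE), with mutant 3 the lowest library.

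The remaining patterning factors were fitted lower, with overlapping genotypes. The paired box genes pax6a and pax6b, needed for the eye and forebrain, had log2 differences of -0.11 ± 0.31 and -0.81 ± 0.53 (SE). The head factor gene otx2 had one of -0.30 ± 0.26 (SE). The forebrain and eye gene six3b had the widest ratio of highest to lowest library among these, with 185, 345 and 357 reads in wild-type libraries and 57, 237 and 539 reads in mutant ones. Its lowest and highest libraries were thus both mutant, 7.56-fold apart in CPM, and its log2 difference of -0.26 ± 0.57 (SE) ranged from -0.90 without mutant 3 to 0.21 without mutant 1. The row eng2a, listed as an older symbol of en2a in a reference table, held 5, 103 and 109 reads in wild-type libraries and 53, 30 and 53 reads in mutant ones.

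Among retinal factors, crx had the smallest p of all members. It encodes a homeobox factor of photoreceptors, and stood at 13.4, 25.0 and 19.9 CPM in wild-type and at 11.8, 9.88 and 15.8 CPM in mutant libraries. The mutant 3 library lay above wild-type 1, so the genotypes overlapped. The log2 difference was -0.64 ± 0.29 (SE; unadjusted p = 0.0486, adjusted p = 1, edgeR), and ranged from -0.84 to -0.41 as each library was left out.

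The other retinal genes were low or uneven. The retinal homeobox gene rx1 held 147, 136 and 91 reads in wild-type 1, 2 and 3, then 0 in mutant 1 and 136 and 142 in mutant 2 and 3. Mutant 1 was thus alone at 0, where a count of 0 allows up to 0.0638 CPM, and the fitted log2 difference moved from -0.56 ± 1.11 (SE) to 0.02 without this library. The related rx2 was close to the detection limit, with 10, 23 and 0 reads in wild-type libraries and 16, 0 and 19 reads in mutant ones. For vsx1, a factor of bipolar cells, the log2 difference was -0.18 ± 0.36 (SE), with mutant 1 lowest and mutant 3 highest.

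All 4 tested proneural genes were fitted lower, and neurog1 had the lowest log2 difference of any member. It stood at 3.87, 3.37 and 5.01 CPM in wild-type and at 1.66, 3.23 and 1.99 CPM in mutant libraries, so every mutant library lay below every wild-type library, as in 3.36% of all tested genes. The log2 difference was -0.83 ± 0.48 (SE; adjusted p = 1, edgeR), and its interval reached from 0.271 to 1.16 times the wild-type level. It ranged from -1.16 to -0.65 as libraries were left out.

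Of the other proneural genes, ascl1a stood at 12.4, 19.2 and 16.0 CPM in wild-type and at 13.4, 12.6 and 7.12 CPM in mutant libraries, with a log2 difference of -0.53 ± 0.30 (SE). Here the lowest library was mutant 3, a library above the 6-library mean for every axonal and synaptic member tested. Its paralogue ascl1b was at -0.16 ± 0.44 (SE), and neurod4, which acts after the proneural step, at -0.43 ± 0.27 (SE). The row neurod, listed as an older symbol of neurod1, stood at 20.5, 21.6 and 23.5 CPM in wild-type and at 12.0, 11.5 and 22.6 CPM in mutant libraries. It was lower in mutant 1 and 2 and within the wild-type range in mutant 3, with a log2 difference of -0.51 ± 0.28 (SE).

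The SoxC genes sox11a and sox11b, expressed as neurons differentiate, were also fitted lower in the mutant libraries. The level of sox11a was 148.4, 291.0 and 176.4 CPM in wild-type and 176.3, 187.6 and 179.1 CPM in mutant libraries. That of sox11b was 42.3, 66.4 and 46.0 CPM in wild-type and 37.5, 57.5 and 42.3 CPM in mutant libraries. Wild-type 2 was the highest library for both, and the log2 differences of -0.18 ± 0.21 and -0.17 ± 0.22 (SE) became 0.16 and 0.05 without it. Leaving out the highest wild-type library raises such a difference by construction. Without mutant 1, its lowest library, sox11b was at -0.05.

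Both radial glia genes were fitted lower. The brain-type fatty acid binding protein gene fabp7a stood at 116.5, 156.5 and 124.4 CPM in wild-type and at 106.1, 98.3 and 112.1 CPM in mutant libraries. It was the second member with every mutant library below every wild-type library. The means were 132.5 ± 21.2 and 105.5 ± 6.96 CPM (SD, n = 3 libraries each), and the log2 difference was -0.33 ± 0.15 (SE; unadjusted p = 0.0544, adjusted p = 1, edgeR). This was the narrowest interval of the members, from 0.631 to 1.01 times the wild-type level, and the value stayed between -0.41 and -0.19 as each library was left out.

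The glial intermediate filament gene gfap stood at 38.3, 46.1 and 56.2 CPM in wild-type and at 33.8, 25.5 and 45.9 CPM in mutant libraries. Mutant 2 was the lowest library for gfap as for fabp7a, while mutant 3 lay above wild-type 1, and the log2 difference was -0.42 ± 0.23 (SE).

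**Figure D2:**
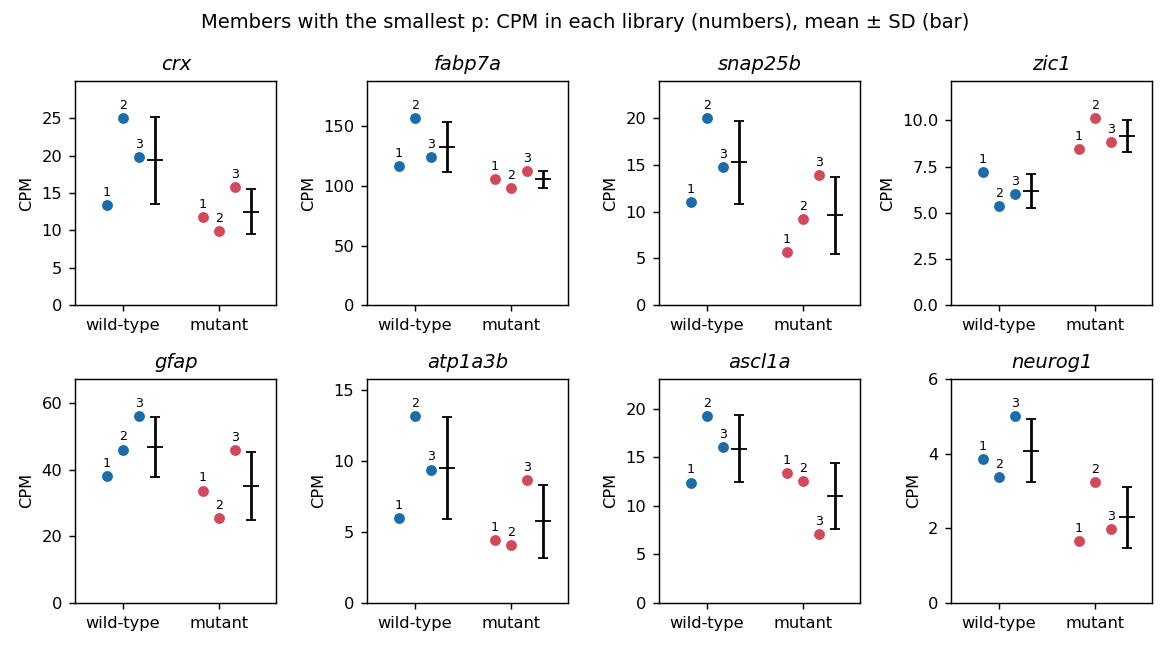
CPM (y axes, starting at 0) of the 8 members with the smallest p, with 1 numbered point per library and the mean ± SD of 3 libraries beside each genotype. Only fabp7a, neurog1 and zic1 have no overlap between wild-type (blue) and mutant (red) libraries, and zic1 alone is higher in the mutant libraries.

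The neuronal RNA-binding genes were uneven among libraries of the same genotype. The Hu protein gene elavl3, switched on in new neurons, stood at 24.6, 53.7 and 32.6 CPM in wild-type and at 26.4, 21.8 and 47.7 CPM in mutant libraries. Its highest libraries were wild-type 2 and mutant 3, and the log2 difference of -0.21 ± 0.32 (SE) became 0.16 without wild-type 2. For elavl4 the difference was -0.24 ± 0.31 (SE). The splicing regulator gene nova2 stood at 51.4, 93.0 and 69.9 CPM in wild-type and at 55.2, 69.8 and 76.9 CPM in mutant libraries, a log2 difference of -0.09 ± 0.22 (SE). For nova2 the lowest library was wild-type 1.

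Genes of the growing axon and the cytoskeleton were lowest in mutant 1 in 5 of 5 tested cases. The beta-tubulin gene tubb5 stood at 163.7, 223.9 and 184.2 CPM in wild-type and at 132.1, 181.3 and 192.2 CPM in mutant libraries, with a log2 difference of -0.18 ± 0.18 (SE). The stathmin gene stmn1b, whose product regulates microtubules, stood at 48.8, 60.7 and 54.7 CPM in wild-type and at 33.4, 55.3 and 66.2 CPM in mutant libraries. In stmn1b mutant 1 was the lowest and mutant 3 the highest library, and the log2 difference of -0.09 ± 0.23 (SE) became 0.15 without mutant 1. Its relative stmn2a was also lowest in mutant 1, at -0.19 ± 0.31 (SE) and 0.09 without mutant 1.

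The reticulon genes rtn1a and rtn1b encode membrane proteins of the endoplasmic reticulum of neurons. The level of rtn1a was 73.8, 88.6 and 72.5 CPM in wild-type and 38.6, 63.2 and 89.1 CPM in mutant libraries, with a log2 difference of -0.30 ± 0.25 (SE). For rtn1b the difference was -0.53 ± 0.32 (SE). Mutant 1 was again the lowest library for both, while mutant 3 was the highest library for rtn1a. The growth cone gene gap43 was listed at 0 reads in all 6 libraries, which allows up to 0.051 to 0.0712 CPM per library for counting error only. Whether its row could collect reads was not tested.

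All 8 tested genes of synaptic release and excitability were fitted lower, and 0 passed. The gene snap25b encodes a SNARE protein that fuses vesicles with the membrane. It stood at 11.0, 20.0 and 14.8 CPM in wild-type and at 5.70, 9.21 and 13.9 CPM in mutant libraries, with a log2 difference of -0.67 ± 0.35 (SE; adjusted p = 1, edgeR). Its paralogue snap25a stood at 17.8, 23.0 and 18.8 CPM in wild-type and at 6.17, 17.7 and 18.7 CPM in mutant libraries, a log2 difference of -0.48 ± 0.36 (SE). For snap25a mutant 2 and 3 lay beside the lower wild-type libraries, mutant 1 lay far below them, and without mutant 1 the difference was -0.12.

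The neuronal sodium pump genes atp1a3a and atp1a3b were also fitted lower. The level of atp1a3a was 59.0, 78.8 and 66.7 CPM in wild-type and 38.2, 58.3 and 68.9 CPM in mutant libraries, a log2 difference of -0.31 ± 0.21 (SE). That of atp1a3b was 5.96, 13.2 and 9.42 CPM in wild-type and 4.47, 4.11 and 8.70 CPM in mutant libraries, a log2 difference of -0.72 ± 0.41 (SE). Both had wild-type 2 as the highest library, and their genotypes overlapped through mutant 3.

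The other synaptic members also overlapped between genotypes. The log2 differences were -0.37 ± 0.33 for syt1a, the calcium sensor of vesicle release, -0.41 ± 0.44 for the complexin gene cplx2, -0.43 ± 0.31 for the G protein subunit gene gng3 and -0.15 ± 0.32 for nsfa (SE). The product of nsfa takes SNARE complexes apart. Mutant 3 was the highest of the 6 libraries for cplx2 and nsfa. Paralogues such as snap25a and snap25b, rtn1a and rtn1b, sox11a and sox11b or atp1a3a and atp1a3b may share reads, and the strand setting of the counting is not given, so the split of reads within a pair is uncertain.

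**Figure D3:**
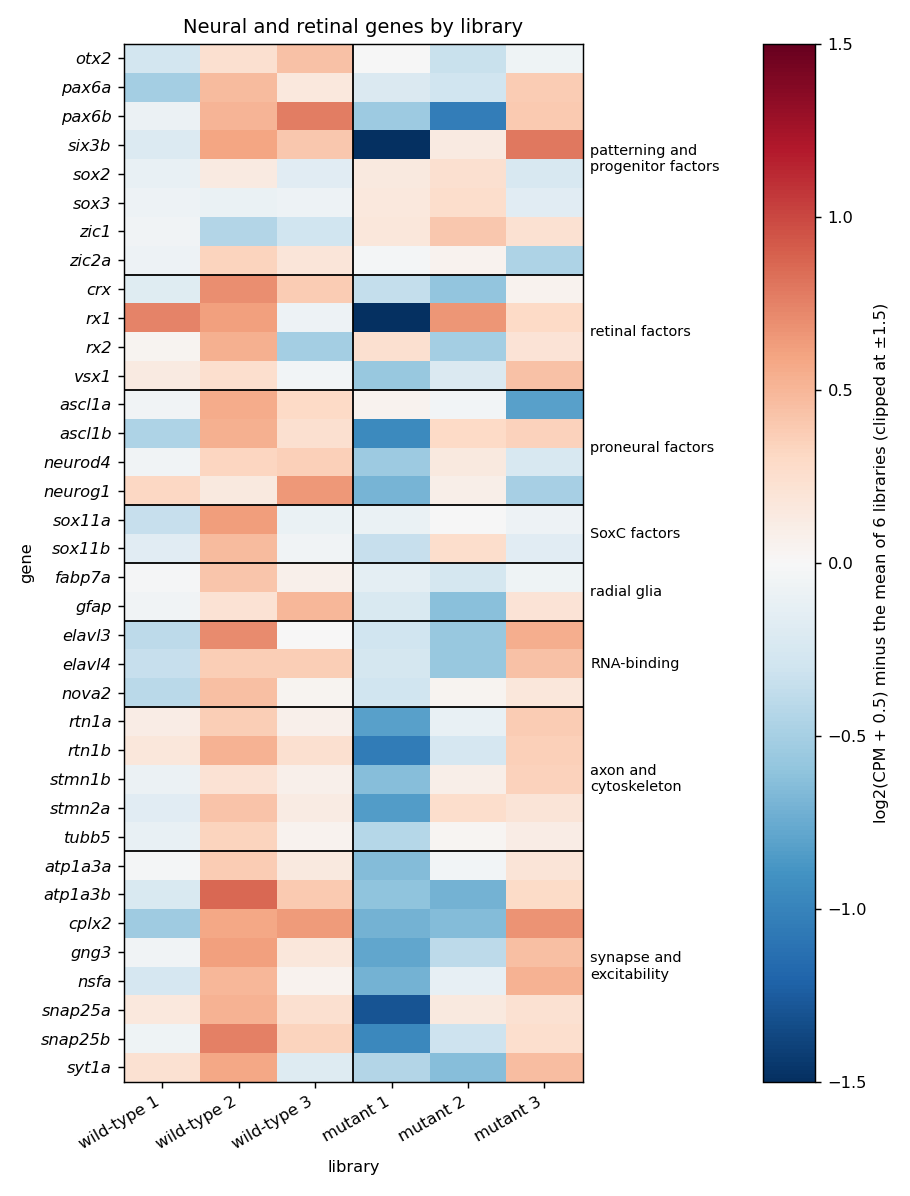
Level of each tested member (rows, grouped by role) in each library (columns, wild-type left of the line and mutant right of it), as log2(CPM + 0.5) minus the mean over the 6 libraries, with red above and blue below that mean and colours clipped at 1.5. Wild-type 2 is mostly red and mutant 1 mostly blue, while mutant 3 is red for most neuronal and synaptic genes and sox2, sox3 and zic1 do not follow these columns.

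The highest values of the members gathered in wild-type 2 and the lowest in mutant 1. Wild-type 2 was the highest library for 20 of the 36 members, where it was highest for 20.1% of all tested genes. Mutant 1 was the lowest for 18 of 36, where it was lowest for 15.7% of all tested genes. These 2 libraries lie in opposite genotypes. Mutant 3 was the highest for 7 members (14% of all tested genes) and the lowest for 4, namely sox2, sox3, zic2a and ascl1a. It was lowest for 2276 of all 19381 tested genes. The mean deviation of the members from their 6-library mean was -0.07, 0.49 and 0.14 log2 units in wild-type 1, 2 and 3. In mutant 1, 2 and 3 it was -0.60, -0.18 and 0.22 log2 units, so mutant 3 lay above wild-type 1 and 3. Over all tested genes the mean deviation was 0.134 log2 units for mutant 3, 0.071 for wild-type 3 and -0.043 for wild-type 1. Mutant 3, wild-type 3 and wild-type 1 thus had the same order among themselves over all tested genes as over the members. For wild-type 2, mutant 1 and mutant 2 the value over all tested genes was -0.027, -0.056 and -0.078 log2 units. There wild-type 2 was not the highest library and mutant 1 not the lowest, unlike over the members.

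The library pattern differed in size between the roles. The summed level of the synaptic members was 159.4, 239.8 and 187.3 CPM in wild-type and 98.0, 141.6 and 210.6 CPM in mutant libraries, 2.45-fold from the lowest to the highest. The patterning and progenitor factors together spanned 1.25-fold, at 130.8, 163.5 and 149.0 CPM in wild-type and 149.5, 158.8 and 141.8 CPM in mutant libraries, a sum made up mostly of sox2 and sox3. Mutant 1 was the lowest library for 6 of 8 synaptic and 5 of 5 axonal members, and for 3 of 4 proneural, 2 of 4 retinal and 1 of 2 SoxC members. It was lowest for 1 of 8 patterning factors and for 0 of 2 glial and 0 of 3 RNA-binding members. Across the 6 libraries the coefficient of variation was 12.4% for sox3 and 13.8% for sox2, the lowest of the members. Its median was 29.2% over the members. It was 30.7% over the 18393 tested genes between the lowest and highest mean CPM of the members, 0.2376 and 193.1. That range held most tested genes, so levels were not matched.

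Markers of other cells also moved between these libraries. Of 19 skeletal muscle genes, 16 were highest in wild-type 2, with summed levels of 2708 to 8088 CPM in wild-type and 2539 to 5578 CPM in mutant libraries. Mutant 3, where neuronal genes were high, had the lowest muscle sum. Of 11 erythrocyte genes, 10 were lowest in mutant 1, with sums of 2468 to 3369 CPM in wild-type and 1621 to 4325 CPM in mutant libraries. Of 25 endothelial genes, 18 were highest in wild-type 1 and 14 lowest in mutant 3, with sums of 1134 to 1733 and 993.3 to 1485 CPM. Among all 19381 tested genes, 3051 were highest in wild-type 1 and 2276 lowest in mutant 3.

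Of 16 epidermis genes, 9 were highest in mutant 1 and 10 lowest in wild-type 3, with sums of 9524 to 12940 CPM in wild-type and 10330 to 15700 CPM in mutant libraries. Of 15 neutrophil and macrophage genes, 8 were highest in mutant 2 and 8 lowest in mutant 1, with sums of 8107 to 12440 and 7833 to 18160 CPM. Mutant 1 was thus the lowest library for many blood genes and the highest for many skin genes. Among all 19381 tested genes, 3063 were highest in mutant 1, 3536 highest in mutant 2 and 2710 lowest in wild-type 3. Of 11 neural crest and pigment genes, 5 were lowest in mutant 1, with sums of 42.0 to 92.6 and 43.7 to 67.5 CPM, and foxd3 and tfec held 0 reads in every library. Of 13 mural and mesenchyme genes, 4 were highest in mutant 1, with sums of 722.0 to 877.9 and 738.2 to 1070 CPM. In the fit 17 of 19 skeletal muscle and 18 of 25 endothelial genes were lower in the mutant libraries, with medians of -0.36 and -0.10. Of erythrocyte and of neural crest and pigment genes 7 of 11 each were lower, with medians of -0.08 and -0.58. For epidermis, neutrophil and macrophage, and mural and mesenchyme genes it was 7 of 16, 6 of 15 and 6 of 13. Their medians were 0.16, 0.04 and 0.09. Without wild-type 2 the muscle count was 7 of 19 (median 0.056), and 17 to 19 with any other library left out. Without wild-type 1 the endothelial count was 9 of 25 (median 0.0975), and 13 to 20 with any other left out. Erythrocyte counts then ranged from 3 to 10 of 11, and neutrophil and macrophage counts from 5 to 14 of 15. Epidermis, neural crest and pigment, and mural and mesenchyme counts ranged from 3 to 11, 6 to 10 and 5 to 7. The part of these markers in the values of the neural genes was not tested.

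**Figure D4:**
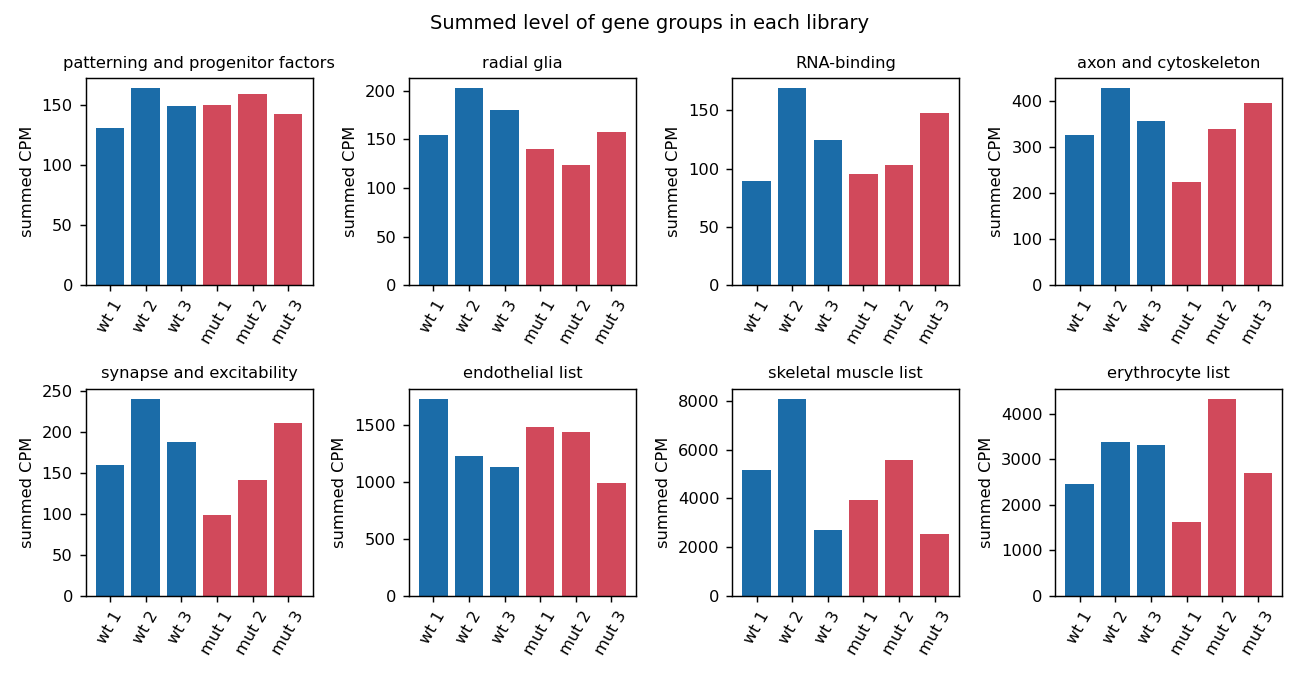
Summed CPM (y axes, from 0) of 5 groups of members and of the endothelial, skeletal muscle and erythrocyte lists in each library (wild-type blue, mutant red). The synaptic sum runs from 98.0 CPM in mutant 1 to 239.8 CPM in wild-type 2, while the patterning and progenitor sum stays between 130.8 and 163.5 CPM. The latter sum is made up mostly of sox2 and sox3, and single genes in it vary more, such as six3b at 7.56-fold.

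Wider lists of neural and retinal genes that hold none of the 41 were read in the same fit, and 0 of their genes passed (edgeR, adjusted p = 1 for each). Of 61 tested genes of neuronal structure and synapses, 48 were fitted lower, with a median log2 difference of -0.22. The smallest p in this list was that of snap91, which encodes a synaptic endocytosis adaptor, at 9.83, 17.4 and 14.3 CPM in wild-type and 5.85, 8.74 and 9.11 CPM in mutant libraries, a log2 difference of -0.81 ± 0.31 (SE). The next smallest was that of gad2, an enzyme gene of GABA synthesis, at -0.99 ± 0.41 (SE). Every mutant library was below every wild-type library for 3 of the 61 genes, snap91, gad2 and slc18a3a, and above for 1, uchl1, where these shares were 3.36% and 3.38% of all tested genes. The tubulin genes tuba1a and tubb2b, the latter listed under an older symbol, had the most reads and were at -0.04 ± 0.17 and -0.04 ± 0.15 (SE). Here too wild-type 2 was the highest library for 30 of 61 genes and mutant 1 the lowest for 34 of 61, and the count fitted lower was 37 without wild-type 2 and 32 without mutant 1. The median was then -0.035 and -0.0184, and it was -0.51 without mutant 3.

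The list of other progenitor and glial genes was nearer to an even split. Of 55 tested genes 31 were fitted lower, with a median of -0.06, and wild-type 2 was highest for 15 and mutant 1 lowest for 17. Every mutant library was below every wild-type library for 1 of the 55 genes and above for 4. These shares were 3.36% and 3.38% of all tested genes. The genes with the smallest p were lhx9, a LIM homeobox factor, at -1.10 ± 0.41, and insm1b, a zinc finger factor of newborn neurons, at -0.63 ± 0.28 (SE). The genes with the most reads were glulb, for glutamine synthetase, at 0.03 ± 0.17, and the Notch-related repressor gene her6 at 0.14 ± 0.24 (SE). Without wild-type 2 and without mutant 1 the counts fitted lower were 28 and 29, and the median ranged from -0.16 without mutant 2 to -0.0182 without mutant 1.

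Of 33 tested genes in the list of retina and lens, 26 were fitted lower, with a median of -0.49, and wild-type 2 was highest for 13 and mutant 1 lowest for 10. Every mutant library was below every wild-type library for 3 of the 33 genes and above for 1, against 3.36% and 3.38% of all tested genes. The smallest p were those of the lens crystallin genes crygmx, at 2.29, 4.26 and 3.43 CPM in wild-type and 0.574, 0.665 and 2.09 CPM in mutant libraries, and crygn2. Their log2 differences were -1.58 ± 0.68 and -0.87 ± 0.42 (SE). The genes with the most reads, prdm1a and tbx2b, which are also expressed outside the eye, were at -0.12 ± 0.20 and 0.34 ± 0.20 (SE). The cone opsin genes opn1mw1 and opn1lw1 and the photoreceptor channel gene cnga1 held 0 reads in every library. So did elavl2 in the list of neuronal structure and synapses, and otx1b and aqp4 in that of progenitors and glia. Whether these rows could collect reads was not tested. Without wild-type 2 the count fitted lower was 22, as it was without wild-type 3, and without mutant 1 it was 23. The median ranged from -1.09 without mutant 3 to -0.32 without mutant 2, and was -0.36 without wild-type 2 and -0.34 without mutant 1.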

How the data were processed

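RNA of sorted cells was amplified and sequenced, per the labels' protocols. The authors deposited whole-number read counts per gene symbol, not normalised, and bcl2fastq, STAR, HTSeq and the builds danRer7 and Zv9 are named per the submitters' processing notes. The sources used here do not give versions, the annotation or the strand setting. The 5 summary rows per library file, 22.1% to 28.1% of its entries, were left out. The main test was that of edgeR 4.0.16 in R 4.3.3 (filterByExpr defaults, TMM scaling, robust quasi-likelihood test, no block), with an adjusted p threshold of 0.05 over all 19381 tested genes. Each SE was taken from the log2 difference and its F statistic. DESeq2 1.42.0 and limma 3.58.1 (voom), other scalings and filters, a replicate block and left-out libraries were alternatives. Tests were tested on simulated data. Figures used matplotlib 3.10.9. Limits set by a count of 0 use 3 reads and cover counting error only. For a tie, the first library was taken as lowest. Named genes are all members, with values per library for the 10 with the highest mean CPM, the 8 with the smallest p and those at 0 in a library. The values per library of snap25a, sox3, six3b, elavl3, neurod and eng2a were added after they were seen. In each wider list the 2 genes with the smallest p and the 2 with the most reads are named, and genes at 0 in every library were added. Wider lists were matched by symbol or an older symbol in a RefSeq table of the assembly GRCz12tu. In these lists 64 of 70, 64 of 64 and 45 of 47 genes were in the table. Members and lists were chosen with earlier results of these data known.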

Additional observations from a re-analysis of the deposited data

How the results depend on the processing

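The number of members called was 0 under every alternative run, as was the number of genes called, with 232 to 929 genes at an unadjusted p under 0.05 in edgeR, 358 in DESeq2 and 325 in limma-voom. The lowest adjusted p of any gene was 0.0535, with the replicate block. The replicate block left 32 of 36 members fitted lower, with a median of -0.32 and 5 members at an unadjusted p under 0.05, where 523 of 19381 tested genes were. Deviations of same-numbered libraries correlated at 0.0598, 0.0211 and 0.14 across tested genes, and no label says what a shared number stands for. Across the members these correlations were -0.102, -0.551 and -0.276. For pairs with different numbers they ranged from -0.14 to 0.0637 across tested genes and from -0.0857 to 0.349 across the members. Scalings, filters and tools gave 31 to 33 members fitted lower, 31 of the 34 kept by the strict filter. With each library left out in turn the count ranged from 25 to 33 and the median from -0.54 to -0.14. Leaving out wild-type 2 and mutant 1 together gave 16 of 36 and a median of 0.0459. These libraries were picked after their values were seen, as those most often highest and most often lowest among the members. Leaving them out thus raises the difference, mutant minus wild-type, by construction. Of 574 alternative values for single members 553 had the sign of the main value. This share does not measure robustness, as some alternatives could not change a sign. The per-library files held the same counts, and fitting without the robust option left the log2 differences as they were. Apart from the left-out libraries, only rx2 changed sign. The value of rx2 was 0.33 in limma-voom and 0.42 with the replicate block, and the cause was not tested. With each library left out, 13 members changed sign: pax6a (-0.37 to 0.13), six3b (-0.90 to 0.21), rx1 (-1.19 to 0.0232), rx2 (-0.78 to 0.92), vsx1 (-0.54 to 0.0336), ascl1b (-0.41 to 0.18), sox11a (-0.37 to 0.16), sox11b (-0.37 to 0.0512), elavl3 (-0.62 to 0.16), nova2 (-0.27 to 0.15), stmn1b (-0.31 to 0.15), stmn2a (-0.38 to 0.091) and nsfa (-0.53 to 0.11). Of 13 retina and lens genes kept by the strict filter 10 were fitted lower. At this number of libraries the intervals of 35 of the 36 members included 0.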
